A study of Zea mays with 18 samples.

Results

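The second day of cold was examined in leaves of a maize line carrying a zmzfp69 lesion. The comparison sets 3 libraries of seedlings kept for 48 h at 4 °C against 3 libraries of the same line kept for 24 h, 6 of the 18 libraries of the study. The study sequenced messenger RNA from seedling leaves of the inbred line B73 and of the zmzfp69 line at 0, 24 and 48 h of cold, with 3 libraries in each of 6 groups. Groups, times and replicate numbers follow the sample titles, which call the line a zmzfp69 mutant and name B73 in brackets. Other label fields call the same line a knock down of ZmZFP69. The titles were used, although the description field of replicates 2 and 3 at both 24 and 48 h of the mutant gives 0 h. In the treatment field 4 °C stands beside the 0 h samples too, and all samples are given as leaf. Both groups compared carry the zmzfp69 lesion and were raised at 25 °C under a 16 h photoperiod. Replicates are described as biological, each holding 50 seedlings, and nothing says whether each library came from a separate experiment. How the lesion was made and how many independent lines were used were not given in the sources used here. No library from a plant kept warm for 24 or 48 h was analysed here, so cold and elapsed time cannot be told apart. In bulk leaf, fewer cells of a type and less RNA per cell cannot be told apart either.

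Maize is a plant of warm climates, and its seedlings are injured by temperatures just above freezing. Cold is sensed within minutes through calcium entry and protein kinases, and these act on transcription factors of the CBF/DREB, ICE1, WRKY, NAC and bZIP families, as known best from Arabidopsis. Over days, chilled leaves build protective proteins, sugars and phenolic compounds, while photosynthesis and growth slow. ZmZFP69 is named in the labels as a zinc finger protein gene, a class of proteins that bind DNA or RNA. No gene in the table carried that name (0 matches), so the targeted gene was not checked in any library.

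Values are deposited FPKM (fragment counts corrected for gene length and for a scaling total of each library, which differed from its recovered reads). Differences are on the log2(FPKM + 1) scale, which understates the change of low genes. Of 50118 genes, 23141 reached 1 FPKM in at least 3 of the 18 libraries and were tested, 17124 of them with a name or description. Rose, fell and called mean an adjusted p under 0.05 in limma with Benjamini-Hochberg adjustment over all genes tested. Recovered reads were 17.1, 19.1 and 17.8 M in the 24 h libraries and 16.0, 18.5 and 14.8 M in the 48 h libraries. The libraries were leaf in content. The most abundant genes for phosphoenolpyruvate carboxylase, pyruvate orthophosphate dikinase, NADP malic enzyme and the RuBisCO small subunit, which mark C4 mesophyll and bundle sheath cells, stood between 810.3 and 16772 FPKM in all 6 libraries. None of these 4 passed the test, and knotted1, a meristem gene, was listed at 0 in all 6.

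Replicate 2 of the 24 h group stood apart before any comparison. On the first principal component, which held 42.2% of the variance, it lay at -68.6, while 24 h replicates 1 and 3 lay at 25.6 and 40.6. The 3 libraries of 48 h lay between 109 and 112, and those of the mutant at 0 h between -98.3 and -93.2. For 53.5% of genes its level was nearer to the 0 h mean than to the mean of the other 24 h libraries. The median within-group SD at 24 h was 0.447 on the log2 scale with it and 0.286 over replicates 1 and 3. An SD over fewer libraries tends to come out lower, so these values are not like for like. Over 3 libraries the median SD was 0.404 in the mutant at 48 h, and 0.365 and 0.463 in B73 at 24 and 48 h. Because replicate 2 stood apart on the first component, counts of called members of each gene list are given with and without it.

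The scaling of the libraries also differed between the groups. The total behind the deposited FPKM was 1.13 ± 0.218 times the recovered reads at 24 h and 0.704 ± 0.0481 times at 48 h (SD, n = 3). It was higher in all 3 libraries of 24 h, at 1.08, 1.36 and 0.935, than in those of 48 h, at 0.759, 0.672 and 0.680 (two-sided exact permutation p = 0.1, the smallest that 3 against 3 allow). The 10 most abundant genes took 10.8 ± 1.60% of reads at 48 h and 8.22 ± 1.44% at 24 h (exact permutation p = 0.1). With each library scaled by its total reads instead, called library-total scaling below, the median log2 change of all genes moved from 0.01 to -0.42. Changes are therefore relative to the typical gene, and the list counts are given under both scalings.

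Between 24 and 48 h the mutant leaf changed in 5198 genes (22.5% of those tested), of which 3127 rose (13.5%) and 2071 fell (8.95%). The risers had a median log2 change of 1.78 and the fallers of -1.17, against 0.01 over all genes tested. At least 2-fold changes were carried by 2864 risers and 1413 fallers. The libraries of 48 h lay entirely above or below those of 24 h in 36.5% of all genes tested (19.7% above, 16.9% below), and in 4973 of the genes called. Library-total scaling called 6203 genes, of which 1552 were higher (6.71%) and 4651 lower (20.1%), and quantile normalization called 2261 higher and 2328 lower. The balance of higher over lower genes therefore rests on the scaling. Called under both the deposited and the library-total scaling were 1552 risers and 2069 of the 2071 fallers. Library-total scaling moved the median change of all genes down to -0.42, so it is little check on the fallers.

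Leaving out 24 h replicate 2 left 3059 genes called (13.2%), 2051 higher (8.86%) and 1008 lower (4.36%). Of the risers 1943 were called again (62.1%), and of the fallers 898 (43.4%). No gene called with it changed sign without it (0 of 5198), but for the 4973 called genes with separate groups no such change was possible. Replicate 2 was the lowest of the 24 h libraries for 1833 of the 3127 risers and the highest for 1352 of the 2071 fallers. This was not tallied for replicates 1 and 3 or over all genes tested, so no background share stands beside it. The median log2 change of the risers was 1.60 without replicate 2, and that of the fallers -1.04. Replicate 1 of 48 h moved the count as much, to 2953 genes without it (1983 higher and 970 lower). All 5198 called genes kept their sign in each of the 6 fits with 1 library left out. For the 4973 with separate groups this was fixed in advance, so it is a weak check. Called in every one of these 6 fits were 1569 risers and 673 fallers. Called higher with all libraries, without 24 h replicate 2 and with library-total scaling were 1327 genes, and called lower in all 3 settings were 898. These 898 are all the fallers called again without replicate 2, so library-total scaling removed none of them. With replicate 2 left out and library-total scaling at once, chosen after seeing the data, 909 genes were called higher (3.93%) and 2173 lower (9.39%).

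**Figure D1:**
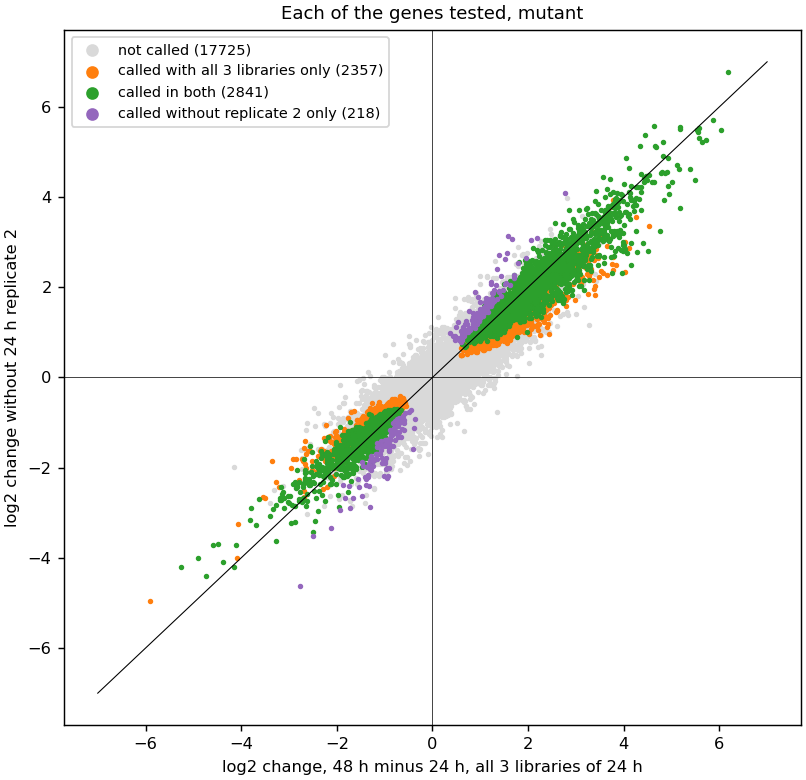
Each point is 1 gene tested in the mutant, with its log2 change from 24 to 48 h using all 3 libraries of 24 h on the horizontal axis and without 24 h replicate 2 on the vertical axis. The 2841 genes called in both fits follow the diagonal, and 218 genes were called only without that replicate.

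Among named genes with the largest rise and separate groups, all 12 were called in each of the 6 fits with 1 library left out. Chloroplastic carbonic anhydrase (Zm00001d044095, chromosome 3, 219031166 to 219034215), an enzyme that interconverts carbon dioxide and bicarbonate, was at 8.81, 1.5 and 5.04 FPKM at 24 h and 294, 386 and 364 FPKM at 48 h (log2 change 6.03, SE 0.62, adjusted p = 5.87e-05). It had stood at 5.95, 12.5 and 2.92 FPKM at 0 h, so its level at 24 h lay near that before the cold, and only the 48 h libraries were high. Its fitted change without 24 h replicate 2 was 5.49 (adjusted p = 0.000403). Maize holds several carbonic anhydrase genes, and reads of near-identical copies may have been shared among them.

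AP2-EREBP-transcription factor 111 (Zm00001d053195, chromosome 4, 219203452 to 219206136), described as the ethylene-responsive factor ERF110, had the lowest adjusted p of these 12. Its 24 h libraries were at 3.19, 2.37 and 2.29 FPKM and its 48 h libraries at 241, 202 and 103 FPKM (log2 change 5.58, SE 0.33, adjusted p = 2.74e-07). Replicate 2 lay between the others here, and the change without it was 5.54. The calcium-binding protein CML19 (Zm00001d025451, chromosome 10, 118988358 to 118988867), a calmodulin-like calcium sensor, went from 7.73, 1.13 and 3.89 to 260.4, 124 and 125 FPKM (log2 change 5.16, SE 0.84, adjusted p = 0.000942). All 3 values of 48 h lay far above those of 24 h, and replicate 2 was the lowest library.

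The chaperones heat shock cognate 70 kDa protein and heat shock protein 81-1, a member of the HSP90 family, stood at 51.3, 9.53 and 49.8 and 0.466, 3.13 and 2.01 FPKM at 24 h. At 48 h they stood at 1615, 1029.9 and 1244 and 234, 38.5 and 93.9 FPKM (log2 changes 5.39 and 5.19, adjusted p = 0.000635 and 0.00388). The first was the most abundant of the 12 leading risers at 48 h, and for both the groups were far apart. Thaumatin-like protein 1, of a family of defence proteins, went from 3.39, 0.345 and 1.62 to 122, 84.3 and 214 FPKM (log2 change 5.72, SE 0.50, adjusted p = 4.03e-05). Probable carboxylesterase 15 had the largest fitted rise, from 1.38, 5.62 and 0.589 to 256, 167 and 224 FPKM (log2 change 6.19, SE 0.95, adjusted p = 0.000671), and here replicate 2 was the highest library of 24 h. The others of the 12 were cytochrome P450 81Q32, the RING-type NEP1-interacting protein 2, L-lactate dehydrogenase, monooxygenase 1, and bZIP-transcription factor 74, with log2 changes of 5.64, 5.57, 5.56, 5.49 and 5.18. Another gene described as NEP1-interacting protein 2, Zm00001d050514, changed by 2.41 and did not pass without 24 h replicate 2 (adjusted p = 0.0877). L-lactate dehydrogenase, the enzyme that makes lactate when oxygen is short, varied most at 48 h, at 327, 44.2 and 11 FPKM.

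**Figure D2:**
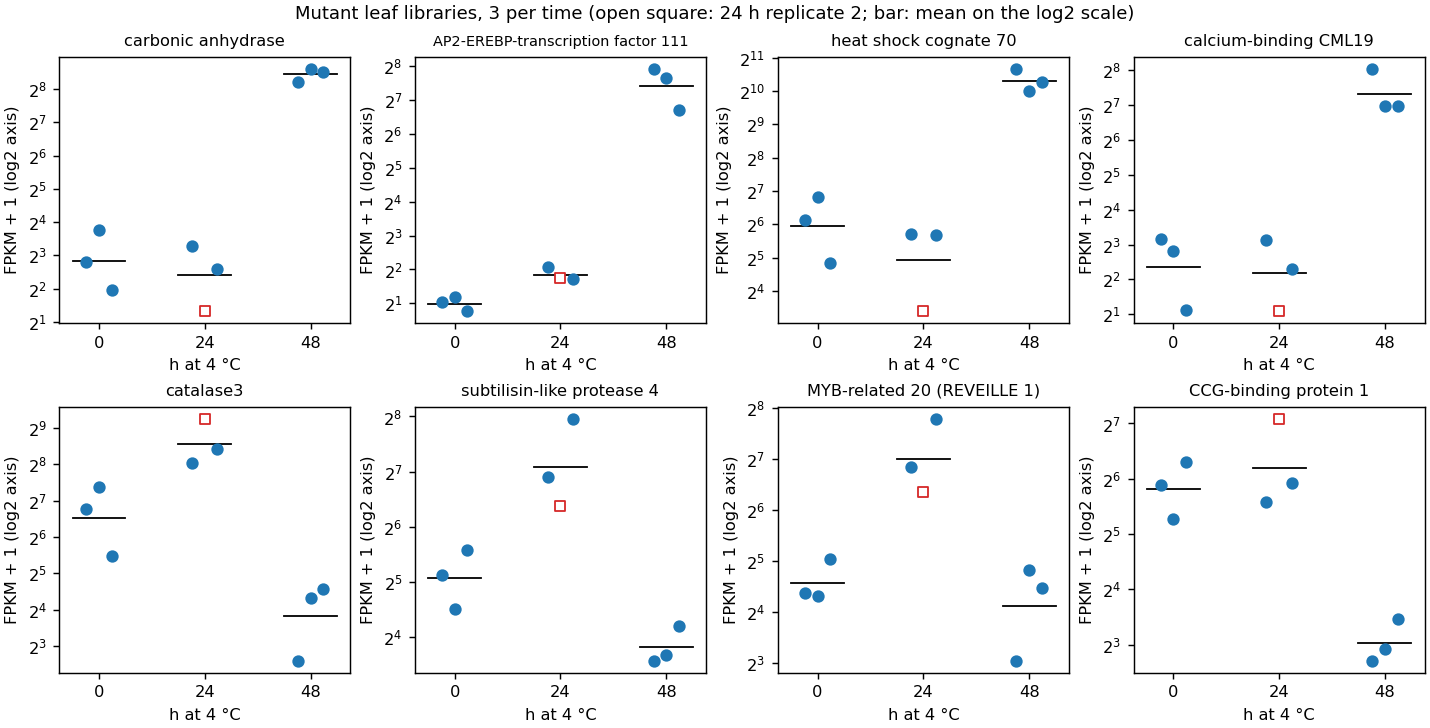
Levels (FPKM + 1 on a log2 axis) of 4 genes that rose (top) and 4 that fell (bottom) in the mutant at 0, 24 and 48 h at 4 °C, 1 point per library, with bars at the mean on the log2 scale. In all 8 genes the 48 h libraries lie clear of the 24 h libraries, and the open square, 24 h replicate 2, is the outermost 24 h library away from 48 h for carbonic anhydrase, heat shock cognate 70, CML19, catalase3 and CCG-binding protein 1.

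Of the 12 leading fallers 8 were called without replicate 2. It was the 24 h library farthest from 48 h in 11 of the 12, and in 8 of the 12 leading risers. Catalase3 (Zm00001d054044, chromosome 4, 245523681 to 245525759), which removes hydrogen peroxide, went from 260.0, 607 and 341 FPKM to 5.06, 19 and 22.8 FPKM (log2 change -4.73, SE 1.10, adjusted p = 0.00768). Its 0 h values were 107, 164 and 43.4 FPKM, so the level at 48 h lay below that before the cold as well. Without replicate 2 its change was -4.39 (adjusted p = 0.0339). Subtilisin-like protease 4 (Zm00001d027387, chromosome 1, 4133373 to 4135619) fell from 119, 81.5 and 248 to 10.9, 11.7 and 17.4 FPKM (log2 change -3.26, SE 0.39, adjusted p = 0.000139). Here replicate 2 was the lowest library of 24 h, and the fall was larger without it, at -3.62.

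Asparagine synthetase3, an enzyme of nitrogen storage that rises in starved leaves, had the largest fall. It stood at 939, 2279.9 and 102 FPKM at 24 h and at 1.61, 87.4 and 3.33 FPKM at 48 h (log2 change -5.92, SE 1.86, adjusted p = 0.0324). Its levels were scattered within both groups, and without replicate 2 the change was -4.96 and did not pass (adjusted p = 0.125). Malate synthase1, an enzyme of the glyoxylate cycle, and the calcium-regulated CBL-interacting protein kinase 10 changed by -4.06 and -3.54 with replicate 2 and stood at -3.25 and -2.66 without it, where they did not pass (adjusted p = 0.134 and 0.0511). The senescence-specific cysteine protease SAG39 did not pass without it either (adjusted p = 0.0646), but the size of its change was nearly the same, -4.09 with and -4.01 without. SAG39 was even at 24 h, at 168, 218 and 198 FPKM, and scattered at 48 h, at 1.24, 51.5 and 11.7 FPKM.

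The other leading fallers included cytosolic L-ascorbate peroxidase 1, a second enzyme that removes hydrogen peroxide, which went from 10.9, 39.3 and 7.5 to 0, 0.0883 and 0.326 FPKM. Subtilisin-chymotrypsin inhibitor homolog1, a protease inhibitor, was the most abundant of them, at 6166, 17754 and 8743 FPKM and then 487, 1953 and 459.8 FPKM (log2 change -3.70, SE 0.86, adjusted p = 0.00763). SNF1-related protein kinase regulatory subunit beta-1, part of the energy-sensing kinase, went from 40.9, 165 and 97.9 to 3.43, 11.8 and 15.2 FPKM (log2 change -3.18, SE 0.62, adjusted p = 0.00295). Protein NRT1/ PTR FAMILY 4.4 and a pair of transcripts with no Zm00001d identifier, described as a retrovirus-related Pol polyprotein and as outer envelope protein 64, completed the 12, with log2 changes of -3.34, -3.78 and -3.62. In these 6 the groups were separate and the calls held without replicate 2.

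For each gene list the brackets give the shares of tested members that rose and fell, to be read against 13.5% and 8.95% of all genes. Without 24 h replicate 2 the shares of all genes were 8.86% and 4.36%, and with library-total scaling 6.71% and 20.1%. Calcium and kinase signalling lists held larger shares of risers than all genes in each of the 3 settings given. Of 249 calmodulin-like proteins and calcium-dependent kinases, 159 were tested, and 44 rose and 9 fell (27.7% and 5.66%, with 26 and 8 without 24 h replicate 2 and 23 and 31 with library-total scaling). The rising share was 16.4% against 8.86% without replicate 2, and 14.5% against 6.71% with library-total scaling. CML46, like CML19 a calcium sensor, stood at 18.1, 0.698 and 1.59 FPKM at 24 h and 273, 92.6 and 92.7 FPKM at 48 h (log2 change 4.94, SE 1.12, adjusted p = 0.00676). Of 61 tested genes of the MAP kinase cascade, 13 rose and 5 fell (21.3% and 8.2%, with 10 and 4 without 24 h replicate 2 and 8 and 11 with library-total scaling). Mitogen-activated protein kinase kinase 5, a kinase in the middle of the cascade, was even at 24 h, at 8.12, 10.1 and 7.99 FPKM, and reached 120.4, 59.9 and 114 FPKM (log2 change 3.29, SE 0.43, adjusted p = 0.000252). MAP kinase3 went from 12.8, 9.4 and 28.3 to 270.4, 102 and 79.4 FPKM (adjusted p = 0.00322). Of 115 tested protein phosphatases 2C, enzymes that reverse kinase signals and of which some hold back abscisic acid signalling, 25 rose and 7 fell (21.7% and 6.09%, with 14 and 4 without 24 h replicate 2 and 14 and 18 with library-total scaling). In these lists the rising shares were 16.4% and 12.2% without replicate 2, and 13.1% and 12.2% with library-total scaling. Under that scaling fallers outnumbered risers in all 3 lists, as they did over all genes.

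The share of risers in the jasmonate list was near that of all genes or below it, depending on the setting. Of 66 tested genes of jasmonate synthesis and signalling, 7 rose and 2 fell (10.6% and 3.03%, with 1 and 2 without 24 h replicate 2 and 4 and 11 with library-total scaling). The rising share of 10.6% stood against 13.5% of all genes, and without replicate 2 it was 1.52% against 8.86%. With library-total scaling it was 6.06% against 6.71%. The median log2 change of the list was 0.11 with the deposited scaling, against 0.01 over all genes. 12-oxo-phytodienoic acid reductase1, which acts in jasmonate-related synthesis, stood at 669, 53.5 and 1509.6 FPKM at 24 h and 2851, 4438 and 3801 FPKM at 48 h (log2 change 3.26, adjusted p = 0.0266), and without replicate 2 its change was 1.85 (adjusted p = 0.123). Replicate 2 was its lowest 24 h library by far. Lipoxygenase13, of the enzyme family that starts jasmonate synthesis, kept its call, going from 14.2, 9.14 and 32.4 to 293, 210.2 and 379 FPKM (adjusted p = 0.00585, and 0.0285 without it). Of 33 tested ethylene genes 8 rose and 3 fell (24.2% and 9.09%, with 2 and 2 without 24 h replicate 2 and 3 and 5 with library-total scaling). The rising share, above that of all genes with all libraries, was below it without replicate 2, at 6.06% against 8.86%. With library-total scaling it was 9.09% against 6.71%. EIN3-binding F-box protein 2, which targets the ethylene factor EIN3 for degradation, rose from 6.18, 1.25 and 2.86 to 19.5, 12.6 and 24.7 FPKM (log2 change 2.28, SE 0.36, adjusted p = 0.000858).

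Among the other hormone lists, 6 of 48 tested abscisic acid genes rose and 3 fell (12.5% and 6.25%, with 5 and 2 without 24 h replicate 2 and 4 and 9 with library-total scaling). Abscisic acid stress ripening7 was listed at 0.168, 0 and 0 FPKM at 24 h and rose to 15.4, 4.02 and 5.25 FPKM (log2 change 2.93, SE 0.53, adjusted p = 0.00194). Of 111 tested auxin genes 15 rose and 9 fell (13.5% and 8.11%, with 6 and 6 without 24 h replicate 2 and 9 and 17 with library-total scaling), close to the 13.5% and 8.95% of all genes. ARF-transcription factor 35, described as auxin response factor 19, rose from 1.76, 0.776 and 3.24 to 23.9, 16 and 36.4 FPKM (log2 change 3.19, SE 0.39, adjusted p = 0.000157). Gibberellin genes numbered 4 risers and 0 fallers of 32 tested (12.5% and 0%, with 2 and 0 without 24 h replicate 2 and 4 and 4 with library-total scaling), and cytokinin genes 5 and 1 of 41 (12.2% and 2.44%, with 1 and 1 without 24 h replicate 2 and 1 and 10 with library-total scaling). The rising shares of the abscisic acid, gibberellin and cytokinin lists were thus just below that of all genes.

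The WRKY, NAC and bZIP families of transcription factors held larger shares of risers and smaller shares of fallers than the 13.5% and 8.95% of all genes. Of 83 tested WRKY factors, which act in defence and stress, 20 rose and 2 fell (24.1% and 2.41%, with 13 and 0 without 24 h replicate 2 and 9 and 7 with library-total scaling), so risers outnumbered fallers in all 3 settings. WRKY-transcription factor 112 was listed at 0.204, 0 and 0 FPKM at 24 h and at 9.51, 2.08 and 17.4 FPKM at 48 h (log2 change 2.98, SE 0.51, adjusted p = 0.00135). Of 78 tested NAC factors 16 rose and 3 fell (20.5% and 3.85%, with 10 and 2 without 24 h replicate 2 and 7 and 8 with library-total scaling), and of 90 bZIP factors 21 rose and 4 fell (23.3% and 4.44%, with 9 and 3 without 24 h replicate 2 and 12 and 14 with library-total scaling). Without replicate 2 the rising shares of the 3 families were 15.7%, 12.8% and 10% against 8.86%, and with library-total scaling 10.8%, 8.97% and 13.3% against 6.71%. NAC-transcription factor 13, described as SUPPRESSOR OF GAMMA RESPONSE 1, a regulator of the DNA damage response in Arabidopsis, went from 10.7, 0.72 and 30.2 to 157, 111 and 196 FPKM (log2 change 4.14, SE 0.91, adjusted p = 0.00555). BZIP-transcription factor 91, described as bZIP60, which drives the unfolded protein response of the endoplasmic reticulum, rose from 9.4, 16.2 and 22.8 to 162, 101 and 125 FPKM (log2 change 2.98, SE 0.42, adjusted p = 0.000367). In the last, replicate 2 lay between the other 24 h libraries and the change without it was 3.02.

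Of 117 tested AP2/ERF factors 27 rose and 8 fell (23.1% and 6.84%, with 17 and 12 without 24 h replicate 2 and 19 and 18 with library-total scaling). Of the 28 cold-associated DREB/CBF members of that family 11 were tested, 2 rose and 0 fell (18.2% and 0%, with 1 and 0 without 24 h replicate 2 and 1 and 0 with library-total scaling), and 10 were listed at 0 in all 6 libraries. The median log2 change of the tested members was -0.38, and -0.89 without replicate 2, against 0.01 over all genes in both settings. AP2-EREBP-transcription factor 79, described as dehydration-responsive element-binding protein 1J, rose from 5.84, 0.562 and 8.25 to 28.4, 48.3 and 16.8 FPKM (log2 change 2.68, SE 0.65, adjusted p = 0.00942). AP2-EREBP-transcription factor 22, described as protein 2B of the same class, rose less, from 18.2, 15.4 and 21.2 to 64.7, 31.9 and 34.2 FPKM, a log2 change of 1.15. It did not pass without replicate 2 (change 1.04, adjusted p = 0.0995) or with library-total scaling (adjusted p = 0.382). Of 109 bHLH factors 18 rose and 6 fell (16.5% and 5.5%, with 10 and 4 without 24 h replicate 2 and 10 and 15 with library-total scaling). BHLH-transcription factor 175, described as ICE1, which activates CBF genes in Arabidopsis, stood at 17.9, 8.64 and 5.21 and 96.2, 34.9 and 55.8 FPKM (adjusted p = 0.0222). Without replicate 2 it did not pass (adjusted p = 0.0651), although its log2 change was nearly the same, 2.48 with and 2.43 without. BHLH-transcription factor 98 had no read in any 24 h library and 38, 5.89 and 6.61 FPKM at 48 h, at least 156-fold higher than 3 reads per library would give. MYB factors, at 23 risers and 14 fallers of 171 (13.5% and 8.19%, with 15 and 9 without 24 h replicate 2 and 14 and 33 with library-total scaling), were close to the shares of all genes.

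Of 228 tested heat shock factors and chaperones 44 rose and 18 fell (19.3% and 7.89%, with 32 and 11 without 24 h replicate 2 and 19 and 47 with library-total scaling, and 29 and 27 with quantile normalization). The rising share stood against 13.5% of all genes, at 14% against 8.86% without replicate 2 and at 8.33% against 6.71% with library-total scaling, where the falling share of 20.6% was close to the 20.1% of all genes. Of 17 tested dehydrins, LEA and cold-regulated proteins, which shield other proteins and membranes when water is short, 3 rose and 0 fell (17.6% and 0%, with 4 and 0 without 24 h replicate 2 and 1 and 0 with library-total scaling). Dehydrin DHN1 went from 28.6, 12.5 and 58.7 to 168, 349.6 and 294 FPKM (log2 change 3.17, SE 0.55, adjusted p = 0.00154) and was already higher in 24 h replicates 1 and 3 than at 0 h, where it stood at 5.72, 17.8 and 5.96 FPKM. The call of dehydrin6 is uncertain in identity, since the table describes it as reticulon-like protein B1. Of 30 tested genes of the trehalose and raffinose pathways 7 rose and 3 fell (23.3% and 10%, with 4 and 1 without 24 h replicate 2 and 3 and 7 with library-total scaling). Galactinol synthase1 and galactinol synthase3, which make the first precursor of raffinose, were at 3.61, 0.719 and 7.94 and 15.2, 3.98 and 8.67 FPKM at 24 h. At 48 h they were at 70.9, 32.4 and 122 and 118, 57 and 379.7 FPKM (log2 changes 4.01 and 3.91, adjusted p = 0.00142 and 0.00586), with replicate 2 lowest at 24 h in both.

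Lists of genes that handle oxidants were called at shares close to or below the 13.5% and 8.95% of all genes. Of 45 tested glutathione transferases, which attach glutathione to toxic compounds, 6 rose and 0 fell (13.3% and 0%, with 6 and 0 without 24 h replicate 2 and 4 and 3 with library-total scaling). Glutathione transferase5 rose from 69, 37.8 and 95.3 to 785, 573 and 996 FPKM (log2 change 3.58, SE 0.48, adjusted p = 0.000265), and glutathione transferase24 from 28.3, 8.61 and 64 to 599.7, 249 and 397 FPKM (adjusted p = 0.0047). Of 53 tested catalases and antioxidant enzymes 8 rose and 5 fell (15.1% and 9.43%, with 4 and 4 without 24 h replicate 2 and 2 and 10 with library-total scaling), the fallers including catalase3 and ascorbate peroxidase 1 described above. Class III peroxidases, which act in the cell wall, counted 6 risers and 1 faller of 59 (10.2% and 1.69%, with 3 and 0 without 24 h replicate 2 and 4 and 3 with library-total scaling). Peroxidase 4 stood at 5.7, 0.8 and 0.223 FPKM at 24 h and 79.5, 43.5 and 8.55 FPKM at 48 h (adjusted p = 0.00815).

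Risers took larger shares of 3 phenolic and defence lists than the 13.5% of all genes, while most members did not pass. Of 101 tested phenylpropanoid and lignin genes 26 rose and 5 fell (25.7% and 4.95%, with 15 and 1 without 24 h replicate 2 and 15 and 8 with library-total scaling), and risers outnumbered fallers in all 3 settings. Trans-cinnamate 4-monooxygenase, an early enzyme of the pathway, went from 0.45, 11.8 and 1.38 to 83.3, 35.9 and 218 FPKM (log2 change 4.64, SE 1.06, adjusted p = 0.00685). Its 0 h values, 33.1, 209 and 5.34 FPKM, overlapped those of 48 h, and here replicate 2 was the highest of the 24 h libraries. Another gene with the same description, Zm00001d009858, had a smaller log2 change of 2.80 (adjusted p = 0.00198). Of 59 tested flavonoid and anthocyanin genes 13 rose and 2 fell (22% and 3.39%, with 6 and 0 without 24 h replicate 2 and 6 and 8 with library-total scaling). Anthocyanin 3'-O-beta-glucosyltransferase, which attaches glucose to anthocyanins, rose from 56.7, 16.5 and 61.1 to 412, 244 and 481 FPKM (log2 change 3.20, SE 0.68, adjusted p = 0.00471). Of 104 tested chitinases, glucanases and pathogenesis-related proteins 19 rose and 1 fell (18.3% and 0.962%, with 13 and 1 without 24 h replicate 2 and 10 and 6 with library-total scaling), the list that holds thaumatin-like protein 1. A putative glucan endo-1,3-beta-glucosidase, which cuts callose, went from 0.937, 0.635 and 3.37 to 33.4, 37.8 and 71.4 FPKM (adjusted p = 0.00193).

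In the cell wall, 9 of 45 tested expansins and xyloglucan enzymes rose and 1 fell (20% and 2.22%, with 4 and 0 without 24 h replicate 2 and 4 and 6 with library-total scaling), and 13 of 88 cellulose and pectin enzymes rose and 8 fell (14.8% and 9.09%, with 9 and 2 without 24 h replicate 2 and 6 and 14 with library-total scaling). Pectinesterase inhibitor 9, which blocks pectin demethylation, rose from 1.34, 8.82 and 0.465 to 70.9, 54.4 and 68 FPKM (log2 change 4.33, SE 0.56, adjusted p = 0.000237), with replicate 2 the highest at 24 h. Xyloglucan endotransglucosylase/hydrolase protein 24 was already high in 24 h replicates 1 and 3, at 92.7, 6.34 and 201 FPKM at 24 h against 0.238, 0.28 and 7.19 FPKM at 0 h. It reached 627, 588 and 423 FPKM at 48 h, with a log2 change of 3.38, and without replicate 2 the change was 1.97 and did not pass (adjusted p = 0.201).

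Few genes of the photosynthetic light reactions passed the test. Of 81 tested light harvesting and photosystem proteins 2 rose and 2 fell (2.47% and 2.47%, with 0 and 0 without 24 h replicate 2 and 0 and 7 with library-total scaling), against 13.5% and 8.95% of all genes. Photosystem II subunit PsbS1, which sheds excess light energy as heat, stood at 752, 284 and 611 FPKM at 24 h and 2003, 2691 and 1437 FPKM at 48 h (log2 change 1.96, adjusted p = 0.0301), and its change without replicate 2 was 1.54 (adjusted p = 0.126). Chlorophyll a-b binding protein CP29.1, an antenna protein, stood at 364, 418 and 394 and 44.6, 146 and 124 FPKM (adjusted p = 0.0251). It did not pass without replicate 2 (adjusted p = 0.0699), but its change was nearly the same, -2.06 with and -2.01 without. Carbon fixation and C4 cycle genes counted 10 risers and 0 fallers of 69 tested (14.5% and 0%, with 5 and 0 without 24 h replicate 2 and 5 and 6 with library-total scaling). The C4 decarboxylase family gene NADP-dependent malic enzyme Zm00001d037693 went from 7.2, 1.77 and 12.8 to 159.5, 51.9 and 103 FPKM (log2 change 3.82, SE 0.56, adjusted p = 0.000518), a minor copy beside the abundant NADP malic enzyme3, which stood at 4131, 1319 and 5223 FPKM and then 2407, 6113 and 5904 FPKM and did not pass (adjusted p = 0.632). Of 37 chlorophyll and tetrapyrrole genes 5 rose and 2 fell (13.5% and 5.41%, with 3 and 0 without 24 h replicate 2 and 3 and 7 with library-total scaling).

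Starch and sucrose genes counted 19 risers and 7 fallers of 114 tested (16.7% and 6.14%, with 10 and 3 without 24 h replicate 2 and 11 and 21 with library-total scaling), and lipid genes 23 and 8 of 128 (18% and 6.25%, with 14 and 3 without 24 h replicate 2 and 13 and 17 with library-total scaling). Digalactosyldiacylglycerol synthase 1, which makes a galactolipid of chloroplast membranes, went from 8.14, 1.02 and 11 to 68.1, 35.2 and 52.7 FPKM (adjusted p = 0.00903, and 0.0477 without replicate 2). Of 41 tested clock genes 7 rose and 4 fell (17.1% and 9.76%, with 3 and 4 without 24 h replicate 2 and 4 and 6 with library-total scaling). MYB-related-transcription factors 20 and 111, both described as REVEILLE 1, a dawn-phased factor that links the clock to auxin in Arabidopsis, fell. Factor 20 went from 114, 80.3 and 220.0 to 7.29, 27.2 and 21.1 FPKM (log2 change -2.88, SE 0.48, adjusted p = 0.00116), and its 0 h values of 19.8, 18.9 and 31.9 FPKM lay near those of 48 h. Factor 111, which overlaps another gene, went from 60.2, 45.7 and 107 to 3.06, 11.4 and 11.9 FPKM (adjusted p = 0.00754). The hour of day of each harvest was not given in the sources used here.

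Ribosome biogenesis and RNA helicase genes had the largest share of fallers of the lists with at least 25 tested members, 38 of 143 against 8.95% of all genes, and 6 rose (4.2% and 26.6%, with 5 and 13 without 24 h replicate 2 and 3 and 75 with library-total scaling). Without replicate 2 the falling share was 9.09% against 4.36%, and with library-total scaling 52.4% against 20.1%. The median log2 change of the list was -0.48, and -0.45 without replicate 2. DEAD-box ATP-dependent RNA helicase 25, which unwinds RNA, fell from 28.8, 28.2 and 17.1 to 4.33, 3.35 and 7.39 FPKM (log2 change -2.11, SE 0.42, adjusted p = 0.00332), whereas the helicase DEAH5, which acts in pre-mRNA splicing, rose from 65.3, 14.6 and 83.7 to 212, 218 and 215 FPKM (log2 change 2.28, SE 0.49, adjusted p = 0.00509). The fallers of this list numbered 18 without 48 h replicate 1.

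Of 171 tested translation factors and tRNA ligases 19 fell and 6 rose (9 and 6 without replicate 2, 63 and 3 with library-total scaling). The falling share was 11.1% against 8.95% of all genes, 5.26% against 4.36% without replicate 2 and 36.8% against 20.1% with library-total scaling. Of 284 cytosolic ribosomal proteins 16 fell and 2 rose (7 and 2 without replicate 2, 49 and 1 with library-total scaling). Their median log2 change was -0.42 with the deposited scaling, against 0.01 over all genes, although the falling share, 5.63%, was below the 8.95% of all genes. Many members are near-identical copies whose reads may be shared. The riser with the largest change, MYB-related-transcription factor 40, is described as 60S ribosomal protein L10 and overlaps another gene. Plastid-type 30S and 50S ribosomal proteins counted 10 fallers and 1 riser of 90 (6 and 1 without replicate 2, 18 and 0 with library-total scaling). Their falling share was 11.1%, and 20% with library-total scaling against 20.1% of all genes. 50S ribosomal protein L7/L12 went from 5.2, 12 and 4.85 to 0.851, 1.39 and 1.36 FPKM (log2 change -1.83, SE 0.42, adjusted p = 0.00683).

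Splicing factors and RNA-binding proteins counted 16 risers and 19 fallers of 140 (11.4% and 13.6%, with 11 and 7 without 24 h replicate 2 and 6 and 46 with library-total scaling), against 13.5% and 8.95% of all genes. Histones counted 13 and 8 of 77 (16.9% and 10.4%, with 11 and 5 without 24 h replicate 2 and 6 and 17 with library-total scaling), and cyclin and DNA replication genes 10 and 11 of 99 (10.1% and 11.1%, with 9 and 4 without 24 h replicate 2 and 7 and 29 with library-total scaling). A histone H4 gene labelled H4C7 had no read in any 24 h library and 17.2, 8.01 and 5.09 FPKM at 48 h. That is at least 20.7-fold higher than 3 reads per library would give. Another gene with this label, Zm00001d026015, changed by 3.27 and did not pass (adjusted p = 0.0612), and without 24 h replicate 2 its change was 1.17. Histone copies are near-identical, so which copy the reads came from is uncertain. Cyclin-dependent kinase G-1 rose from 6.43, 3.34 and 6.59 to 33.7, 24.8 and 48.6 FPKM (log2 change 2.50, SE 0.32, adjusted p = 0.000218).

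**Figure D3:**
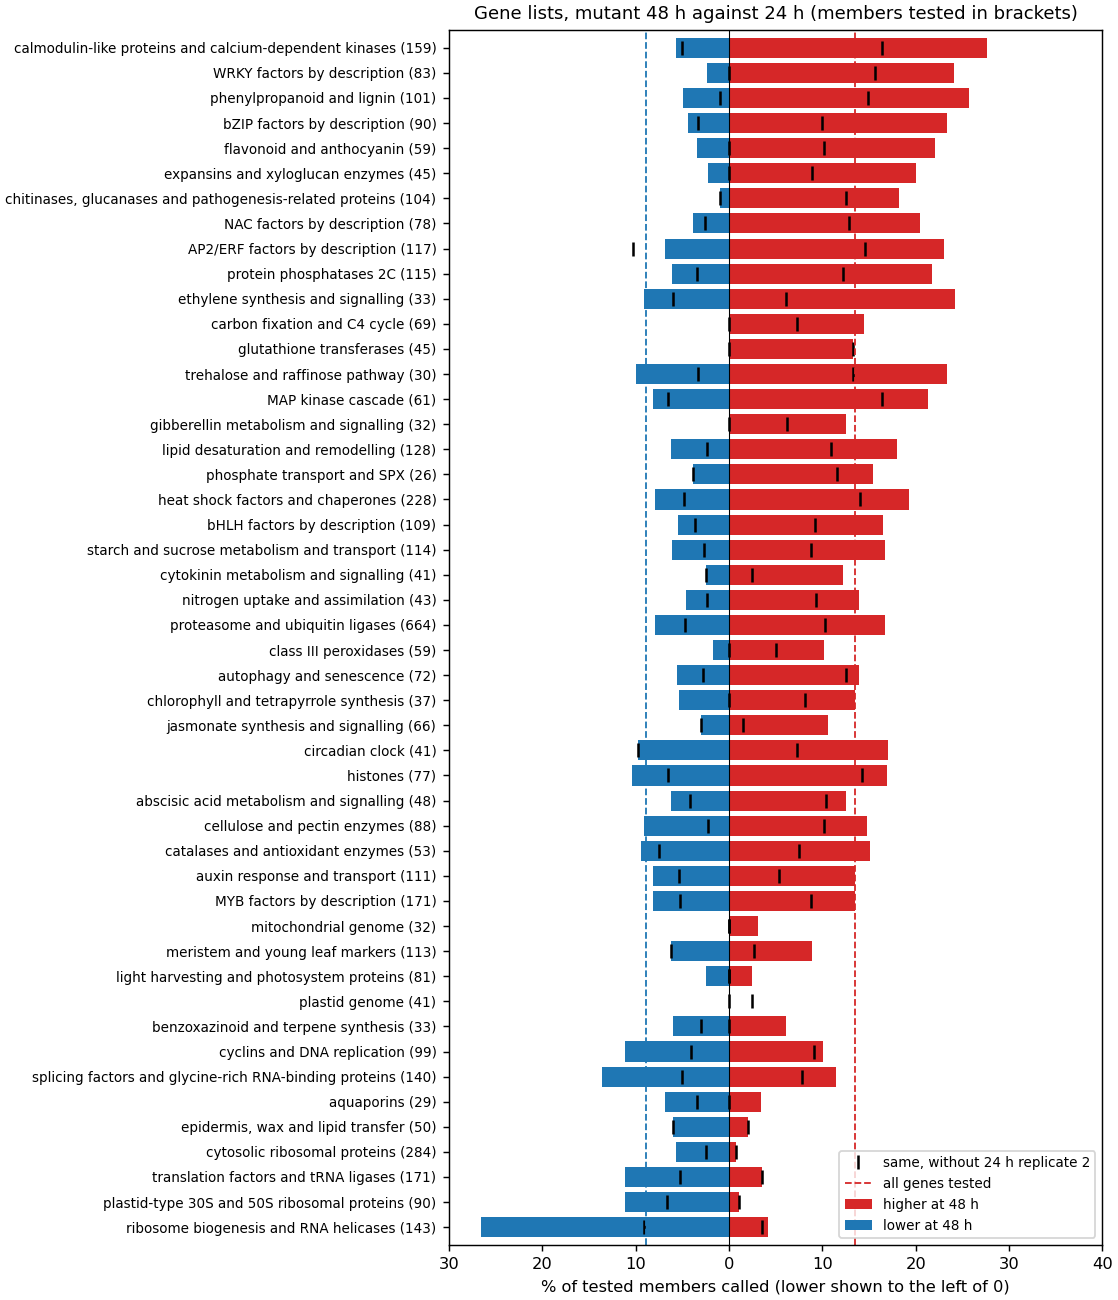
Share of tested members that rose (red, right) or fell (blue, left) in the mutant from 24 to 48 h, for each gene list with at least 25 tested members (number tested in brackets). Black ticks give the same shares without 24 h replicate 2, and dashed lines the shares of all genes tested with all libraries. The DREB/CBF, dehydrin and vascular lists are smaller and not shown. Calcium genes lie farthest to the right at 27.7% risers against 13.5% of all genes, and ribosome biogenesis genes farthest to the left at 26.6% fallers against 8.95%. Without replicate 2 the falling share of the latter was 9.09% against 4.36% of all genes.

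Markers of other leaf cells were called, with all libraries, at shares below those of all genes. Of 50 tested epidermis, wax and lipid transfer genes 1 rose and 3 fell (2% and 6%, with 1 and 3 without 24 h replicate 2 and 0 and 4 with library-total scaling), and 19 of 87 were at 0 in all 6 libraries. Their summed level was 1774, 964 and 903 FPKM at 24 h and 3553, 1528 and 552 FPKM at 48 h, and the groups overlapped. Non-specific lipid-transfer protein 2 was a faller, from 246, 627 and 362 to 59.6, 41.8 and 76.4 FPKM (adjusted p = 0.00707). Vascular markers, mainly sucrose and SWEET transporters, counted 1 riser and 0 fallers of 11 (9.09% and 0%, with 0 and 0 without 24 h replicate 2 and 0 and 1 with library-total scaling), with 0 of 14 at 0 and summed levels of 392, 970.4 and 779 FPKM and 425, 416 and 660.5 FPKM. Meristem and young leaf markers counted 10 and 7 of 113 (8.85% and 6.19%, with 3 and 7 without 24 h replicate 2 and 2 and 19 with library-total scaling), with 51 of 203 at 0, knotted1 among them. Their summed level was 3477, 1449 and 2149.8 FPKM at 24 h and 3955, 4277 and 2925 FPKM at 48 h, with overlapping groups. Yabby15 rose from 3.73, 0.0389 and 2.75 to 10.3, 26.7 and 28.8 FPKM (log2 change 2.99, SE 0.53, adjusted p = 0.0016), with replicate 2 the lowest library. Their part in the results above was not tested. Organelle genes took 0.0939 ± 0.0342% of reads at 24 h and 0.112 ± 0.0432% at 48 h (SD, n = 3, two-sided exact permutation p = 0.5).

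Some genes were called only when 24 h replicate 2 was left out (218 in all). Lea protein group3 and glutaredoxin-C10, a small redox protein, were listed at 0 FPKM in 24 h replicates 1 and 3 but at 6.63 and 24.5 FPKM in replicate 2. Their 48 h values were 12.7, 8.81 and 3.18 and 8.18, 11.1 and 5.06 FPKM, and the log2 changes without replicate 2 were 3.05 and 3.13 (adjusted p = 0.00647 and 0.000534). Dehydrin13 stood at 1134, 1917 and 181 FPKM at 24 h, with replicate 2 the highest, and 2503, 3203 and 2852 FPKM at 48 h (adjusted p = 0.0488 without it, and 0.0927 with it). In the other direction, AP2-EREBP-transcription factor 92, described as ethylene-responsive transcription factor 4, stood at 227, 27.1 and 549.8 FPKM at 24 h and 9.99, 72 and 51.4 FPKM at 48 h. In replicate 2 it was near the 0 h values of 11.3, 8.48 and 25.1 FPKM, and its change was -3.35 without that library (adjusted p = 0.0255, against 0.133 with it). BZIP-transcription factor 21, CBL-interacting protein kinase 16 and DETOXIFICATION 49 followed the same pattern, with log2 changes of -3.51, -2.93 and -2.89 without replicate 2.

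B73 over the same day was compared to see where the mutant differed. B73 changed in 806 genes (3.48%), of which 607 rose (2.62%) and 199 fell (0.86%). Of these, 553 were called with the same sign in the mutant, 68.6% of the B73 calls and 10.6% of the mutant calls, and 6 with the opposite sign. Among the risers of the mutant 89.1% had a change above 0 in B73, against 48.8% of all genes, and among its fallers 70.4% had a change below 0, against 50.7%. The median B73 change was 0.82 in the mutant's risers and -0.23 in its fallers. The difference between the counts is not a test of a difference between genotypes. The direct test of the difference called 39 genes (0.169%), of which 18 changed more upward in the mutant (0.0778%) and 21 more downward (0.0907%), and 3484 genes had an unadjusted p under 0.05. Without 24 h replicate 2 it called 24 genes (0.104%), 14 upward (0.0605%) and 10 downward (0.0432%), and 19 of the 24 were among the 39. The count was unstable, at 1 gene with limma-voom, 7 with only the libraries compared and 17 with library-total scaling. With 1 library left out it ranged from 16 to 311. Of the 24 leading risers and fallers only the transcript described as a retrovirus-related Pol polyprotein passed the direct test.

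For 3 leading genes the changes in the genotypes are set side by side. Carbonic anhydrase Zm00001d044095 had a log2 change of 2.93 in B73 (adjusted p = 0.0179) and 6.03 in the mutant, and the difference did not pass (adjusted p = 0.136). AP2-EREBP-transcription factor 111 changed by 3.75 in B73 and 5.58 in the mutant (adjusted p of the difference = 0.116). Catalase3 did not pass in B73, at -0.22 (adjusted p = 0.953), and its difference from the mutant did not pass either (adjusted p = 0.202).

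Several genes that did pass the direct test went opposite ways in the genotypes. ABC transporter G family member 14 (Zm00001d024497, chromosome 10, 74153903 to 74159100), which exports cytokinin from roots in Arabidopsis, stood at 0.139, 0 and 0.657 FPKM at 24 h and 25.9, 26.3 and 4.73 FPKM at 48 h in the mutant. In B73 it stood at 8.24, 12.1 and 6.68 FPKM and then 0.559, 2.46 and 0.898 FPKM, so it rose in the mutant and fell in B73 (difference of log2 changes 5.87, SE 0.78, adjusted p = 0.0063). Cinnamoyl-CoA reductase-like SNL6, of the family that makes lignin precursors, showed the same pattern, at 4.15, 0.343 and 1.81 and 9.74, 12.8 and 10.4 FPKM in the mutant and 9.42, 18.3 and 14.2 and 4.03, 2.76 and 3.04 FPKM in B73 (adjusted p = 0.00645). CCG-binding protein 1 (Zm00001d034175, chromosome 1, 285707107 to 285709046) fell in the mutant, from 47.1, 135 and 59.5 to 5.54, 6.54 and 9.99 FPKM. Its B73 values of 35.8, 21.8 and 18.9 FPKM at 24 h and 16.8, 27.2 and 37.8 FPKM at 48 h overlapped (difference -3.24, adjusted p = 0.0449, and 0.0946 without 24 h replicate 2).

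**Figure D4:**
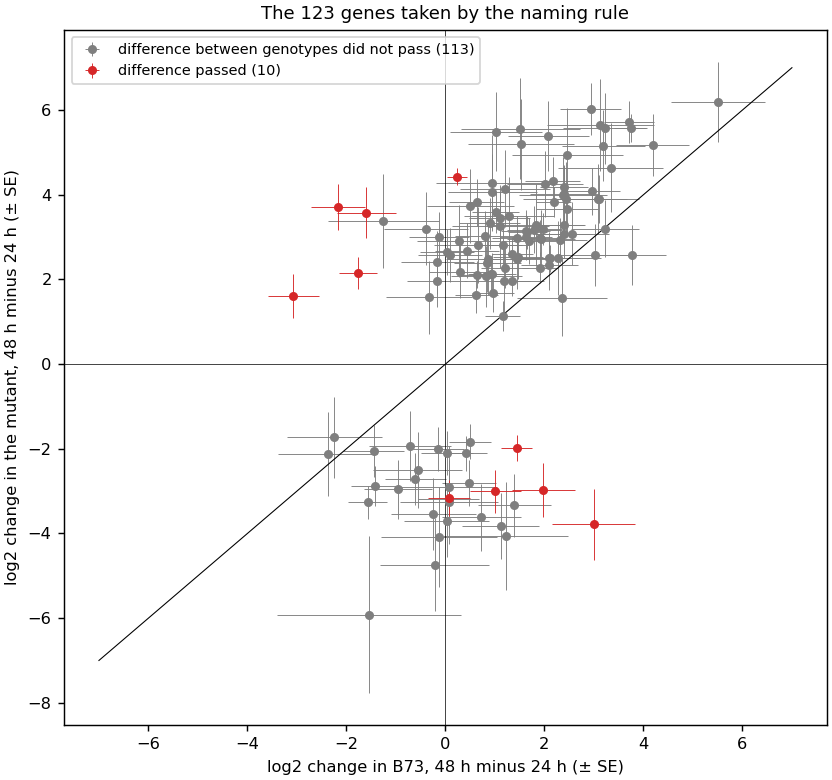
Log2 change from 24 to 48 h of the 123 genes taken by the naming rule, B73 on the horizontal axis and the mutant on the vertical axis, with bars of 1 SE and the diagonal of equal change. Red points passed the test of the difference between genotypes, and for 3 genes with no read in the mutant at 24 h the plotted change depends on the pseudocount.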

How the data were processed

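The authors deposited FPKM values, 1 table of 18 columns, all used. The submitters' processing notes name HISAT2 2.0.5 and featureCounts 1.5.0-p3 beside fastp, and also DESeq2 1.20.0. Which build and which strand option were used was not given in the sources used here, while the labels' protocols describe poly-T selection and a directional library. Overlapping genes may therefore share reads. Coordinates are as in the table. Whole reads were recovered from the FPKM steps (100% of values within 0.01 reads) for totals and for limma-voom. Limma-voom took the total behind the deposited FPKM as library size. FPKM + 1 was log2-transformed, and limma 3.58.1 (R 4.3.3) with trend fitted 6 group means to all 18 libraries (12 residual degrees of freedom, prior 3.54). Tests are two-sided. The fit was tested on simulated data. Of the 49 gene lists, patterns in names and descriptions, members outside the filter are not counted. The members and lists were chosen with earlier results of these data known, and 1 ethylene pattern was repaired after the data were seen. P-values measure the spread between these samples, which may be technical. The smallest chi-square between replicates within the mutant 24 h and 48 h groups was 95.7 per gene, so none of these repeated another of its group. Pairs across groups and the other libraries were not checked. Intervals from reads were not computed.

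Named genes followed a rule. It took the 12 largest rises and 12 largest falls among called genes with a name, at least 5 FPKM in the higher group and groups that did not overlap, and the 2 called members with the largest change of each list. It added the 4 and 4 called only without 24 h replicate 2, and the 5 and 5 with the largest difference from B73. The text gives part of these. Genes of the tissue check were named as the most abundant of each marker. Other settings tried were library-total scaling, quantile normalization, limma-voom, array weights, a replicate block, a pseudocount of 0.1, no low-value filter, no organelle genes, only the libraries compared, and leaving out each library. Replicate 2 left out together with library-total scaling, and list counts with quantile normalization, were chosen after seeing the data.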

Additional observations from a re-analysis of the deposited data

Results flagged for a closer look

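The change from 24 to 48 h differed between the mutant and B73 in 39 genes by the test of the difference itself (limma, adjusted p under 0.05), and the 10 named ones are given here as the mutant change minus the B73 change on the log2 scale. ABC transporter G family member 14 differed by 5.87 (adjusted p = 0.0063, and 0.0182 without 24 h replicate 2). Nitrate reductase [NAD(P)H], the first enzyme of nitrate use, differed by 5.17 (adjusted p = 0.0216), standing at 0.703, 0.443 and 0.421 and then 23.6, 33.3 and 6.01 FPKM in the mutant and at 1.27, 9.9 and 4.8 and then 0.87, 1.5 and 0.109 FPKM in B73, and did not pass without replicate 2 (adjusted p = 0.0556). RING-H2 finger protein ATL8 differed by 4.68 (adjusted p = 0.0142), with 7.94, 2.27 and 2.37 and then 15.1, 14.3 and 10.3 FPKM in the mutant and 5.96, 13.7 and 35.7 and then 0.445, 2.11 and 0.392 FPKM in B73. SNORD25, a small nucleolar RNA gene, had 22, 22 and 17 reads in the 48 h libraries of the mutant, none in those of 24 h, and 0, 0 and 0.636 FPKM in B73 at 48 h. It was at least 11.5-fold higher at 48 h than at 24 h, with 3 reads per library taken as the floor, and its fitted difference, which depends on the pseudocount, was 4.19 (adjusted p = 3.18e-06). Cinnamoyl-CoA reductase-like SNL6 differed by 3.92.

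In the other direction, the transcript with no Zm00001d identifier described as a retrovirus-related Pol polyprotein differed by -6.78 (adjusted p = 0.035, and 0.0647 without replicate 2). It stood at 1.59, 51.3 and 25.3 and then 0, 0.271 and 0.0679 FPKM in the mutant and at 0.61, 0.00452 and 0.0156 and then 8.61, 5.55 and 12.2 FPKM in B73. Aquaporin TIP3-1, a water channel of the vacuole, differed by -4.95 (adjusted p = 0.0358, and 0.0972 without it), with 30.9, 81.8 and 51.9 and then 10.3, 3.02 and 5.36 FPKM in the mutant and 3.54, 1.93 and 1.67 and then 15.9, 5.3 and 19.4 FPKM in B73. CTP synthase differed by -4.01 (adjusted p = 0.0358, and 0.097 without it). Protein yippee-like At4g27745 differed by -3.43 (adjusted p = 0.0063, and 0.0147 without it), and CCG-binding protein 1 by -3.24. In each of the 10 the difference kept its direction without 24 h replicate 2.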

How the results depend on the processing

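All 115 named genes called from 24 to 48 h in the mutant kept their direction in every alternative run for them. Leaving out 1 library cannot reverse a gene whose groups are separate, so direction is a weak check in those fits. Calls were kept by 40 with only the 6 libraries and the replicate block, 49 without 24 h replicate 2 in the other 5 libraries, 78 without it and with library-total scaling, 89 without 24 h replicate 2, 92 without 48 h replicate 1, 101 with library-total scaling, 106 with limma-voom, 104 with quantile normalization, 111 with a pseudocount of 0.1 and 80 with only the 6 libraries in the fit. The count of 5198 changed genes became 1682 with only the 6 libraries compared, 410 with these and the replicate block, 679 without 24 h replicate 2 and only the other 5 libraries, and 3082 (909 higher, 2173 lower) without that replicate and with library-total scaling. With 1 library left out it ranged from 2953 to 4970. Counts stayed within 1.5 times with the pseudocount (5264), no filter (4848), quantile normalization (4589), limma-voom (4534, 64.8% of them higher), array weights (4910) and organelle genes left out (5207). The limma-voom fit kept the deposited scaling, so it is no separate check of the balance of higher over lower genes. The 39 genes that differed from B73 became 17 with library-total scaling, with or without replicate 2, 1 with limma-voom, 7 with only the 12 libraries and 268 with array weights. Leaving out 1 library gave 16 (B73 48 h replicate 3) to 311 (B73 24 h replicate 1). In the mutant it gave 70, 24 and 108 without 24 h replicates 1, 2 and 3 and 17, 21 and 120 without those of 48 h. In B73 it gave 17 and 18 without 24 h replicates 2 and 3, and 66 without 48 h replicate 2. The 806 genes of B73 became 523 with library-total scaling, 457 with limma-voom and 1698 with array weights, and limma on its 6 libraries alone called 0, with 3328 at an unadjusted p under 0.05. Leaving out 1 library gave 223 to 1101, with 327 and 223 without 24 h replicates 2 and 3 and 248 without 48 h replicate 1. Fits of few libraries have fewer degrees of freedom, and the cause of the other shifts was not tested. Whether the replicate numbers pair the samples could not be settled. Same-numbered deviations at 24 and 48 h correlated at 0.14, -0.15 and 0.19 across genes, and differently numbered ones at -0.25 to 0.13. With 3 libraries a group these values cannot decide it. The replicate block gave 5085, 41 and 711 genes for the mutant, the difference and B73. With 3 libraries a group, small changes of low genes may not be detectable.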

Other observations

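Groups not described above included ubiquitin and proteasome genes, of which 111 rose and 53 fell of 664 tested (16.7% and 7.98%, with 68 and 31 without 24 h replicate 2 and 49 and 119 with library-total scaling), against 13.5% and 8.95% of all genes. Probable E3 ubiquitin-protein ligase BAH1-like 1, named after an Arabidopsis ligase known for control of salicylate and nutrient responses, went from 3.2, 0.945 and 3.46 to 75.9, 48.6 and 57 FPKM (log2 change 4.19, SE 0.48, adjusted p = 9.57e-05). Of 26 tested phosphate transport and SPX genes 4 rose and 1 fell (15.4% and 3.85%, with 3 and 1 without 24 h replicate 2 and 0 and 1 with library-total scaling), with a median log2 change of 1.28. Phosphate transporter4, described as PHO1-3, of a family that exports phosphate, was even at 24 h, at 12.7, 10.7 and 10.6 FPKM, and stood at 56.6, 90.1 and 73.6 FPKM at 48 h (log2 change 2.57, SE 0.64, adjusted p = 0.011).

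Autophagy and senescence genes counted 10 risers and 4 fallers of 72 (13.9% and 5.56%, with 9 and 2 without 24 h replicate 2 and 1 and 12 with library-total scaling). Lethal leaf spot1, which opens the ring of chlorophyll breakdown products, stood at 12.3, 36.6 and 14.5 FPKM at 24 h and 119, 62.7 and 185 FPKM at 48 h (log2 change 2.51, adjusted p = 0.0495), and its change without replicate 2 was 2.97 (adjusted p = 0.0558). Nitrogen genes counted 6 and 2 of 43 (14% and 4.65%, with 4 and 1 without 24 h replicate 2 and 4 and 4 with library-total scaling), benzoxazinoid and terpene genes 2 and 2 of 33 (6.06% and 6.06%, with 0 and 1 without 24 h replicate 2 and 1 and 4 with library-total scaling), and aquaporins 1 and 2 of 29 (3.45% and 6.9%, with 0 and 1 without 24 h replicate 2 and 0 and 6 with library-total scaling). Plastid genes, 41 of 179 tested, counted 0 risers and 0 fallers (0% and 0%, with 1 and 0 without 24 h replicate 2 and 0 and 0 with library-total scaling), and mitochondrial genes 1 and 0 of 32 (3.12% and 0%, with 0 and 0 without 24 h replicate 2 and 1 and 1 with library-total scaling).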
